A study of Mus musculus with 24 samples.

Results

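The nitric oxide and cGMP pathway was followed here through 10 genes of the mouse aorta: the nitric oxide synthases Nos1, Nos2 and Nos3, the subunits of soluble guanylyl cyclase Gucy1a3 and Gucy1b3, the kinase Prkg1, the phosphodiesterase Pde5a, and Ddah1, Ddah2 and Gch1, which act on the synthases. The genes were chosen by name, and each was found once among the 25941 genes of the table. All 10 also passed the filter on low counts that left 14528 genes for testing. The samples were thoracic aortas of wildtype adult male C57BL/6 mice aged 10 to 12 weeks. The mice ate chow for 3 weeks, which delivered 100 mg/kg/day of the drug in the celecoxib group, 50 mg/kg/day in the rofecoxib group and no drug in the control group. Every mouse of all 3 groups, controls included, received interleukin-1β at 10 ug/kg by intraperitoneal injection 4 h before it was killed at zeitgeber time 11. No group was without interleukin-1β, so its own effect cannot be read from these data. Each group held 8 libraries of polyadenylated RNA. The labels number them as replicates, and do not say whether a library held 1 aorta or a pool. The p-values thus measure the spread between these libraries.

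Nitric oxide is made from arginine by the nitric oxide synthases, which need tetrahydrobiopterin as a cofactor. In the vessel wall it diffuses into smooth muscle and binds the haem of soluble guanylyl cyclase, a dimer of an alpha and a beta subunit. The cGMP that this enzyme forms activates cGMP-dependent protein kinase, which relaxes the muscle, and phosphodiesterases break the cGMP down. Celecoxib and rofecoxib selectively inhibit cyclooxygenase-2, and celecoxib carries a sulfonamide where rofecoxib carries a methylsulfone.

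The stretches of DNA before the start sites of 4 of the genes are shown because these genes varied together from library to library: Gch1 with Nos2, and Pde5a with the cyclase subunits. Each is the 250 bases before the start that RefSeq annotates on GRCm38.p6, 5′ to 3′ on the gene's strand, where Gucy1a3 is called Gucy1a1 and Gucy1b3 is called Gucy1b1. Gch1 is at chr14:47189414-47189663 (minus strand), the first of the 2 Gucy1a1 stretches at chr3:82145651-82145900 (minus), Gucy1b1 at chr3:82074712-82074961 (minus) and Pde5a at chr3:122728908-122729157 (plus). Capitals mark matches, on either strand, to the NF-kB consensus, the CArG box bound by serum response factor, the GC box GGGCGG, the CCAAT box CCAAT and the TATA box TATAAA.
Gch1: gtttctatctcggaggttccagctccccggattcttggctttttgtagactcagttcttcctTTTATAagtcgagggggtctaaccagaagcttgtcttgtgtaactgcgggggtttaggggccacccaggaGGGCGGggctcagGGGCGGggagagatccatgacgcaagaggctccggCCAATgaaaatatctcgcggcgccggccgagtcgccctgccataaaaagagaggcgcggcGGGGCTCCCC
Gucy1a3: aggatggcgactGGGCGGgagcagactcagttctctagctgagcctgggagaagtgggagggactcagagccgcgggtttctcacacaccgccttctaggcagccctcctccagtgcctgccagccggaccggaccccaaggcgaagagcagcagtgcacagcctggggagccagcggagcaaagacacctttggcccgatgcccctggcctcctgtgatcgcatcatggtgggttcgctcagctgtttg
Gucy1b3: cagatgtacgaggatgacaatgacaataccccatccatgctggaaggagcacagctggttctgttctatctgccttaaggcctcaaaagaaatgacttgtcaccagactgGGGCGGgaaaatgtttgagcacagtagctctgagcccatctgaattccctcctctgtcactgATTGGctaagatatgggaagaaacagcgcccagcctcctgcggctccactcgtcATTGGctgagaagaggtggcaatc
Pde5a: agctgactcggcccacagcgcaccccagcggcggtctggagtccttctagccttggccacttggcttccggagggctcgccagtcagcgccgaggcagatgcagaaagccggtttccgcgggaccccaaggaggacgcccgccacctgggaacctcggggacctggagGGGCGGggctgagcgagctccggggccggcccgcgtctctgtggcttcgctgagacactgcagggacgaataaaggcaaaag
The last 10 bases before the Gch1 start matched the NF-kB consensus on both strands. That consensus was found in 7.25% of 32851 such stretches of the same length across the genome's annotated starts. The Gch1 stretch also held 2 GC boxes, 1 CCAAT box and, on the strand opposite to the printed one, 1 TATA box. The Gucy1b3 stretch held 1 GC box on the printed strand and 2 CCAAT boxes on the opposite one, and those of Gucy1a3 and Pde5a held 1 GC box each. None of the 4 held a CArG box, which 1.47% of all stretches did, and GC, CCAAT and TATA boxes were in 32.7%, 33.8% and 12.4% of them. A match is a stretch of letters and not a shown binding site. RefSeq windows were matched for 8 of the 10 genes, but not for Nos2 or Nos3. Among those not printed, the Nos1 stretch also held a match to the NF-kB consensus.

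The deposited counts of each library summed to between 21668798 and 21700121 reads, within 0.145% of each other. Smooth muscle and endothelial markers were present in every library. The summed level of 11 smooth muscle markers lay between 30098 and 48991 CPM (reads scaled to a common library total) and that of 14 endothelial markers between 802 and 1489 CPM. Adipocyte markers were also present throughout: the summed level of 8 white adipocyte markers ran from 741 to 4420 CPM. Of 10 skeletal muscle markers, Myh1, Myh2, Myh4, Pvalb and Tnni2 had no read in 8, 11, 17, 14 and 3 of the 24 libraries. Acta1, Ckm, Tnnt3, Mylpf and Atp2a1 had reads in all. The summed level of the 4 tested was 40.3 CPM in control replicate 3 and 3.67 to 6.05 CPM in the other controls. Among neutrophil markers Ly6g had no read in 11 libraries and Fpr1 in 1. S100a8, S100a9, Csf3r, Cxcr2, Mmp8, Retnlg and Trem1 had reads in every library. The summed level of 8 neutrophil markers ran from 10.0 to 133 CPM.

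In control aortas the transcripts of the cyclase had the highest means of the 10 when reads were scaled by exon length. Means per kilobase of exon (CPM per kb, SD, n = 8) were 26.3 ± 3.54 for Gucy1b3, the beta subunit, 17.8 ± 2.51 for Gucy1a3, the alpha subunit, 16.9 ± 7.04 for Nos2 and 15.1 ± 1.62 for Pde5a. Gucy1b3 lay above Gucy1a3 and Pde5a by more than these SDs, while Nos2, with its wide SD, overlapped all 3. Gch1 (9.58 ± 1.85), Nos3 (7.43 ± 2.14) and Ddah2 (7.23 ± 1.44) formed a middle group whose SDs overlapped. Ddah1 (0.526 ± 0.244) and Prkg1 (0.440 ± 0.0624) lay more than 10-fold below that group, and Nos1 (0.129 ± 0.0200) was lowest. Gucy1b3, Gucy1a3 and Pde5a held the first 3 places in both drug groups. Nos2 there, at 9.32 ± 5.68 CPM per kb with celecoxib and 9.57 ± 5.80 with rofecoxib, lay within the SDs of Ddah2, Gch1 and Nos3. Lengths came from a later annotation than the one the reads were counted on, so this order is approximate.

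No member of the set passed the test in any comparison. By the quasi-likelihood test of edgeR, adjusted over all genes after Benjamini and Hochberg, 0 of 10 passed between rofecoxib and control, where 6.94% of all tested genes did. Between celecoxib and control 0 of 10 passed against 0.0344% of all genes (0.00688% higher and 0.0275% lower), and between rofecoxib and celecoxib 0 of 10 against 4.89%. At an unadjusted p under 0.05 the counts were 2, 1 and 0 of 10, against 28.2%, 13.6% and 23% of all genes. DESeq2 and limma voom also called 0 of 10 in each comparison. Of all genes, in the same order, DESeq2 called 1796 of 14918, 107 of 13945 and 1439 of 15405. Limma voom called 2447, 121 and 862 of 14528. The median log2 fold change of the 10 was 0.04 with rofecoxib and 0.05 with celecoxib against control, beside 0.02 and 0.00 over all genes tested. Both drugs were compared with the same 8 control libraries.

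**Figure D1:**
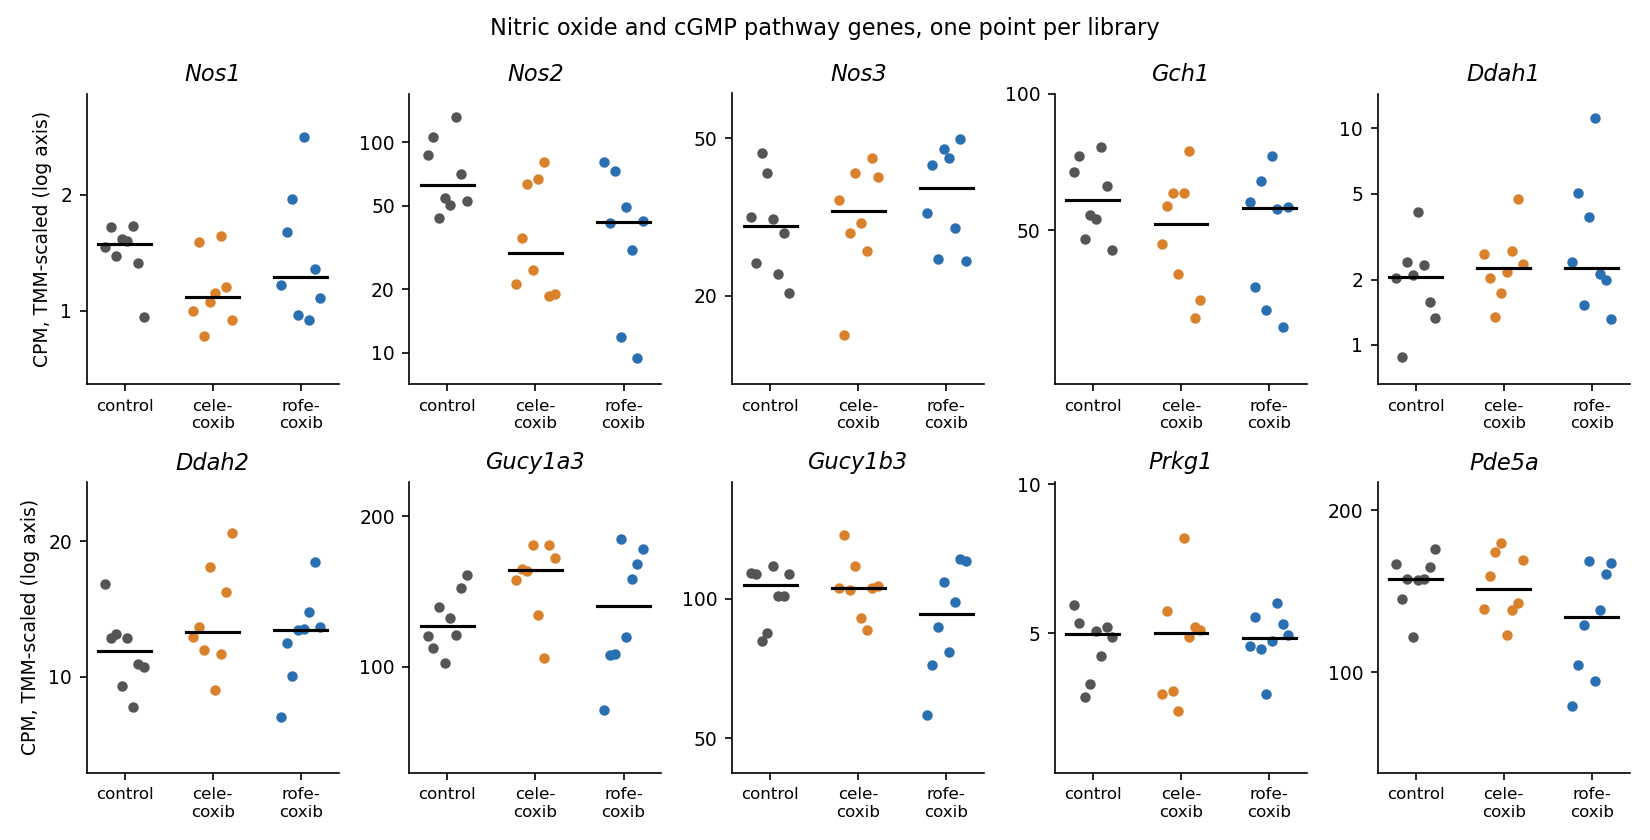
Level of each of the 10 genes in every library, in CPM after TMM scaling, on a log axis. Each point is 1 library (8 per group) and each bar is the group's median. The groups overlap in every panel, and Nos2 spreads the most, from 9.43 to 131 CPM.

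Nos2 encodes the inducible synthase that cytokines switch on in smooth muscle and macrophages (chr11:78734087-78773958 of mm9, ENSMUSG00000020826). Its level ran from 43.8 through a median of 62.6 to 131 CPM in the control libraries, from 18.5 through 29.9 to 80.4 CPM with celecoxib, and from 9.43 through 41.6 to 80.3 CPM with rofecoxib. In each drug group 5 of 8 libraries lay below every control, and the remaining 3 lay within the control range. The log2 fold change was -0.86 (SE 0.40, n = 8 per group, edgeR adjusted p = 0.344) with celecoxib and -0.82 (SE 0.39, adjusted p = 0.176) with rofecoxib. The 95% intervals ran from -1.67 to -0.04 and from -1.63 to -0.003, and neither difference passed after adjustment. Rofecoxib and celecoxib differed by 0.04 (95% interval -0.77 to 0.86), which leaves room for a difference of either sign. Within groups the SD of log2 CPM was 0.887, larger than that of 98.1% of all tested genes, whose median was 0.207. Of all the settings tried, limma voom with sample weights came nearest to a call, at an adjusted p of 0.050007 with rofecoxib.

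Gch1 encodes GTP cyclohydrolase, the first and rate-limiting enzyme of tetrahydrobiopterin synthesis (chr14:47773368-47809290, ENSMUSG00000037580). It ran from 45.3 through 58.3 to 76.3 CPM in controls, from 32.1 through 51.6 to 74.6 with celecoxib and from 30.6 through 56.0 to 72.8 with rofecoxib. In each drug group 3 libraries lay below every control and none above. The log2 fold changes were -0.24 (SE 0.18, adjusted p = 0.572) and -0.23 (SE 0.18, adjusted p = 0.414).

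Nos2 and Gch1 varied together across libraries. The library with the most Nos2 in the control group, replicate 6, had the most Gch1 (131 and 76.3 CPM), and so did celecoxib replicate 6 (80.4 and 74.6 CPM). Celecoxib replicate 7 (18.5 and 32.1 CPM) and rofecoxib replicate 7 (9.43 and 30.6 CPM) had the least of both in their groups. Rofecoxib replicate 5 broke the order within its group, with the most Gch1 (72.8 CPM) but only the third highest Nos2, 49.3 CPM. With each gene's log2 CPM centred within its group, Pearson's r over the 24 libraries was 0.88 and Spearman's rho 0.89 (permutation p = 1e-05 and 2e-05, the first being the smallest that 100000 permutations can give). Adjusted over the 45 pairs of the 10 genes these were 0.00045 and 0.0009. Leaving out the 2 libraries farthest from the median of Nos2 gave r = 0.84, and within groups r was 0.95 in controls, 0.93 with celecoxib and 0.83 with rofecoxib.

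**Figure D2:**
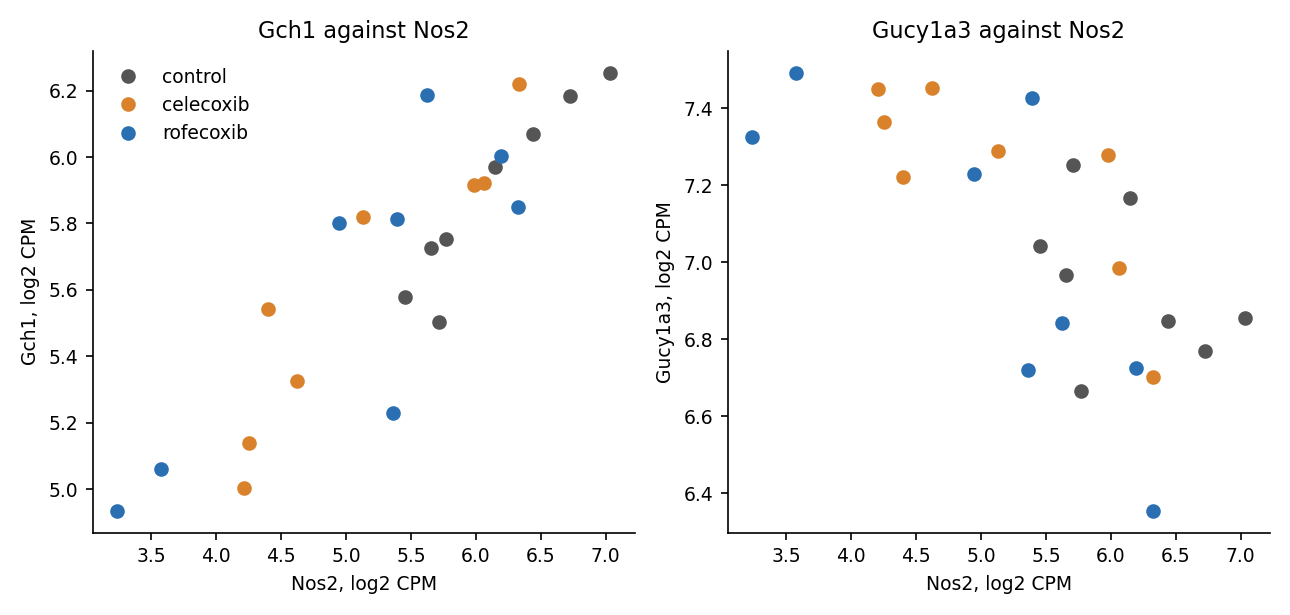
Gch1 (left) and Gucy1a3 (right) against Nos2, all in log2 CPM, with 1 point per library coloured by group (8 each). Libraries with more Nos2 have more Gch1 (r = 0.88 after centring within groups) and less Gucy1a3 (r = -0.72).

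Nos3 encodes the endothelial synthase (chr5:23870426-23890494, ENSMUSG00000028978). It ran from 20.3 through 30.0 to 45.9 CPM in controls, from 16.0 through 32.7 to 44.5 with celecoxib and from 24.4 through 37.5 to 49.8 with rofecoxib. The groups overlapped almost entirely, with 2 rofecoxib libraries above every control and 1 celecoxib library below. The log2 fold changes were 0.26 (SE 0.20, adjusted p = 0.384) with rofecoxib and 0.09 (SE 0.20, adjusted p = 0.861) with celecoxib. Beside this, 13 of 14 endothelial markers were above 0 on the log2 scale with rofecoxib, with a median of 0.30, and Tek, Kdr and Egfl7 passed the test. Tek, the angiopoietin receptor, rose by 0.49 (SE 0.11, adjusted p = 0.0173), Kdr, a VEGF receptor, by 1.09 (SE 0.29, adjusted p = 0.0285) and Egfl7 by 0.82 (SE 0.21, adjusted p = 0.0265). Relative to the mean log2 level of the 14 endothelial markers in the same library, Nos3 differed from control by -0.07 with rofecoxib and 0.02 with celecoxib (two-sided exact permutation test, 8 against 8 libraries, p = 0.640 and 0.901). In bulk RNA a change in the number of endothelial cells and a change in RNA per cell cannot be told apart. Nos3 overlaps Atg9b and Gm15587 on the genome, and the strand setting of the counting is not known here, so a part of its 17521 reads may belong to these genes, which had 582 and 397 reads of their own.

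Nos1, the neuronal synthase (chr5:118230839-118409051, ENSMUSG00000029361), was near the lower limit of what this depth measures, with 18 to 63 reads per library. It ran from 0.964 through 1.49 to 1.66 CPM in controls, from 0.859 through 1.08 to 1.56 with celecoxib and from 0.944 through 1.22 to 2.81 with rofecoxib. Its log2 fold changes were -0.32 (SE 0.20, adjusted p = 0.488) with celecoxib and 0.04 (SE 0.20, adjusted p = 0.919) with rofecoxib. Limma voom gave -0.13 for the latter, so its direction was not settled. Of the synthases, only Nos2 and Nos3 exceeded 10 CPM in any library, and their levels ran against each other: r was -0.56 and rho -0.63 (permutation p = 0.00611 and 0.00163, adjusted 0.0299 and 0.0105), and r was -0.48 without the 2 farthest libraries.

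The dimethylarginine dimethylaminohydrolases Ddah1 and Ddah2 break down asymmetric dimethylarginine, an inhibitor of the synthases. Ddah1 (chr3:145421437-145557443, ENSMUSG00000028194) ran from 0.874 through 2.06 to 4.11 CPM in controls, from 1.34 through 2.27 to 4.74 with celecoxib and from 1.31 through 2.27 to 11.2 with rofecoxib. The group medians were close, and rofecoxib replicate 5, at 11.2 CPM, stood far above the other rofecoxib libraries. The log2 fold change with rofecoxib was 0.81 (SE 0.38, adjusted p = 0.165), and without that library it was 0.32 (adjusted p = 0.521). With celecoxib it was 0.24 (SE 0.39, adjusted p = 0.802), and 0.03 without celecoxib replicate 7. Rofecoxib replicate 5 also had the highest summed level of 7 Schwann cell markers, 513.7 CPM against 40.5 to 114 CPM in the other rofecoxib libraries, and all 7 were detected in every library. Control replicate 5, with the most Ddah1 of the controls, likewise had the most Schwann cell marker RNA of its group (177 CPM against 38.6 to 87.6). Across the 24 libraries, centred within groups, Ddah1 followed the level of the Schwann cell markers (r = 0.71) and of the endothelial markers (r = 0.71), and the part of either in its level was not tested.

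Ddah2 (chr17:35195778-35199242, ENSMUSG00000007039) ran from 8.58 through 11.4 to 16.1 CPM in controls, from 9.33 through 12.6 to 20.9 with celecoxib and from 8.15 through 12.7 to 18.0 with rofecoxib. It was the more abundant of the pair in every group, at 7.23 against 0.526 CPM per kb in controls. The log2 fold changes were 0.27 (SE 0.16, adjusted p = 0.457) with celecoxib and 0.12 (SE 0.16, adjusted p = 0.629) with rofecoxib. Its 6616 reads may hold some of Clic1, an overlapping gene with 56725 reads.

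The subunits of soluble guanylyl cyclase lie side by side on chromosome 3 (Gucy1a3 at chr3:81896148-81950001, ENSMUSG00000033910, and Gucy1b3 at chr3:81835724-81878835, ENSMUSG00000028005, 17312 bases apart). Gucy1a3 ran from 102 through 120 to 153 CPM in controls, from 104 through 156 to 175 with celecoxib and from 81.8 through 132 to 180 with rofecoxib. With celecoxib 5 of 8 libraries lay above every control. The log2 fold changes were 0.28 (SE 0.14, adjusted p = 0.382) with celecoxib and 0.11 (SE 0.14, adjusted p = 0.639) with rofecoxib.
Gucy1b3 ran from 81.3 through 107 to 118 CPM in controls, from 85.9 through 106 to 137 with celecoxib and from 56.2 through 92.7 to 122 with rofecoxib. The spread was widest with rofecoxib, where 3 libraries lay below every control and 2 above. Its log2 fold changes were 0.05 (SE 0.13, adjusted p = 0.893) with celecoxib and -0.15 (SE 0.13, adjusted p = 0.445) with rofecoxib.

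Because both subunits form 1 enzyme, their reads were also set against each other within each library, a ratio that no scaling between libraries can move. The ratio of Gucy1a3 to Gucy1b3 reads ran from 0.964 through a median of 1.17 to 1.62 in controls, from 1.14 through 1.45 to 1.66 with celecoxib and from 1.22 through 1.46 to 1.66 with rofecoxib. All 8 rofecoxib libraries and 7 of 8 celecoxib libraries lay above the control median, but control replicate 3, at 1.62, lay among the highest of all. On the log2 scale the mean ratio was higher than control by 0.26 with rofecoxib (two-sided exact permutation test, 8 against 8, p = 0.0281, adjusted over 3 comparisons 0.0844) and by 0.23 with celecoxib (p = 0.0628, adjusted 0.0942). Neither difference passed the adjustment. Without control replicate 3 they were 0.32 and 0.29 (exact permutation, adjusted p = 0.0140 and 0.0252), and without celecoxib replicate 2 the celecoxib difference was 0.27 (adjusted p = 0.0476), so single libraries decided these calls. The 2 drug groups differed by 0.03 (exact permutation p = 0.711). Within replicates 1 to 4 and 5 to 8 taken separately, a split of the numbers that the labels do not name as a batch, the rofecoxib difference was 0.29 and 0.22 and the celecoxib difference 0.23 in both. These are parts of the same libraries, and both drugs share the controls, so the values add no separate evidence.

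**Figure D3:**
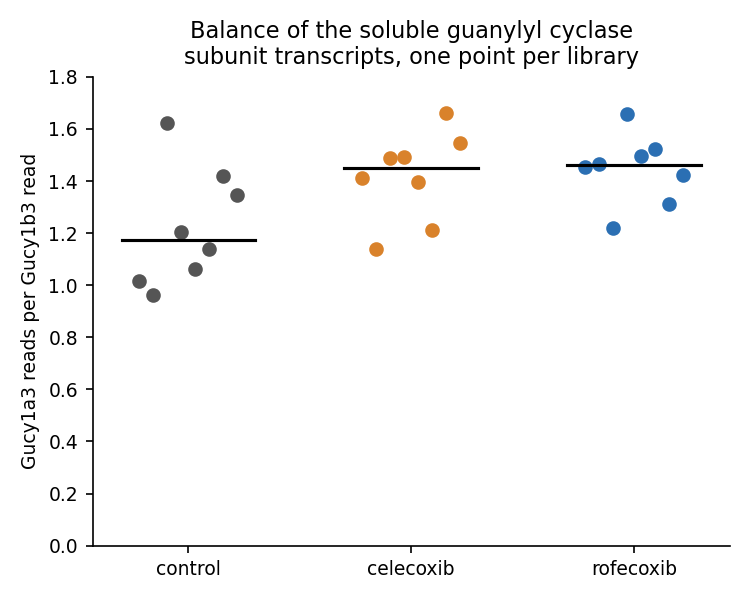
Reads of Gucy1a3 divided by reads of Gucy1b3 in each library, with 1 point per library (8 per group) and a bar at each group's median. The control median is 1.17 and the drug group medians are 1.45 and 1.46, while 1 control library, at 1.62, lies level with the highest drug libraries.

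Prkg1, the cGMP-dependent protein kinase of smooth muscle (chr19:30643526-31839514, ENSMUSG00000052920), had a low read count for the length of its transcript. It ran from 3.71 through 4.99 to 5.71 CPM in controls, from 3.48 through 5.0 to 7.78 with celecoxib and from 3.76 through 4.89 to 5.75 with rofecoxib. The 3 medians were close and the groups overlapped. Its log2 fold change was 0.05 (SE 0.14, adjusted p = 0.891; 95% interval -0.23 to 0.33) with celecoxib and 0.04 (SE 0.14, adjusted p = 0.877; 95% interval -0.24 to 0.32) with rofecoxib. Cstf2t, which lies within Prkg1, had 25830 reads against 2534 for Prkg1, and without a known strand setting some of these could be exchanged.

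Pde5a, the phosphodiesterase that splits cGMP and the target of sildenafil (chr3:122431874-122562494, ENSMUSG00000053965), ran from 116 through 149 to 169 CPM in controls, from 117 through 143 to 173 with celecoxib and from 86.6 through 126 to 161 with rofecoxib. With rofecoxib 3 of 8 libraries lay below every control and none above. Its log2 fold change was -0.23 (SE 0.12, adjusted p = 0.205; 95% interval -0.47 to 0.02) with rofecoxib and -0.02 (SE 0.12, adjusted p = 0.947) with celecoxib.

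Smooth muscle markers tended lower with rofecoxib. All 11 lay below 0 with a median log2 fold change of -0.18, though only Synpo2, an actin-binding protein of the contractile apparatus, passed, falling by 0.39 (SE 0.12, adjusted p = 0.0496). Relative to the mean log2 level of these 11 markers, Pde5a differed from control by -0.05 and Gucy1b3 by 0.01 with rofecoxib (exact permutation p = 0.555 and 0.902). On the same scale Gucy1a3 was higher by 0.27 and Prkg1 by 0.24 with rofecoxib (exact permutation p = 0.0617 and 0.0333), and Gucy1a3 by 0.25 with celecoxib (p = 0.0668). None of the 10 such tests passed adjustment, the lowest adjusted p being 0.223. With celecoxib 6 of the 11 markers were above 0 and none passed.

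**Figure D4:**
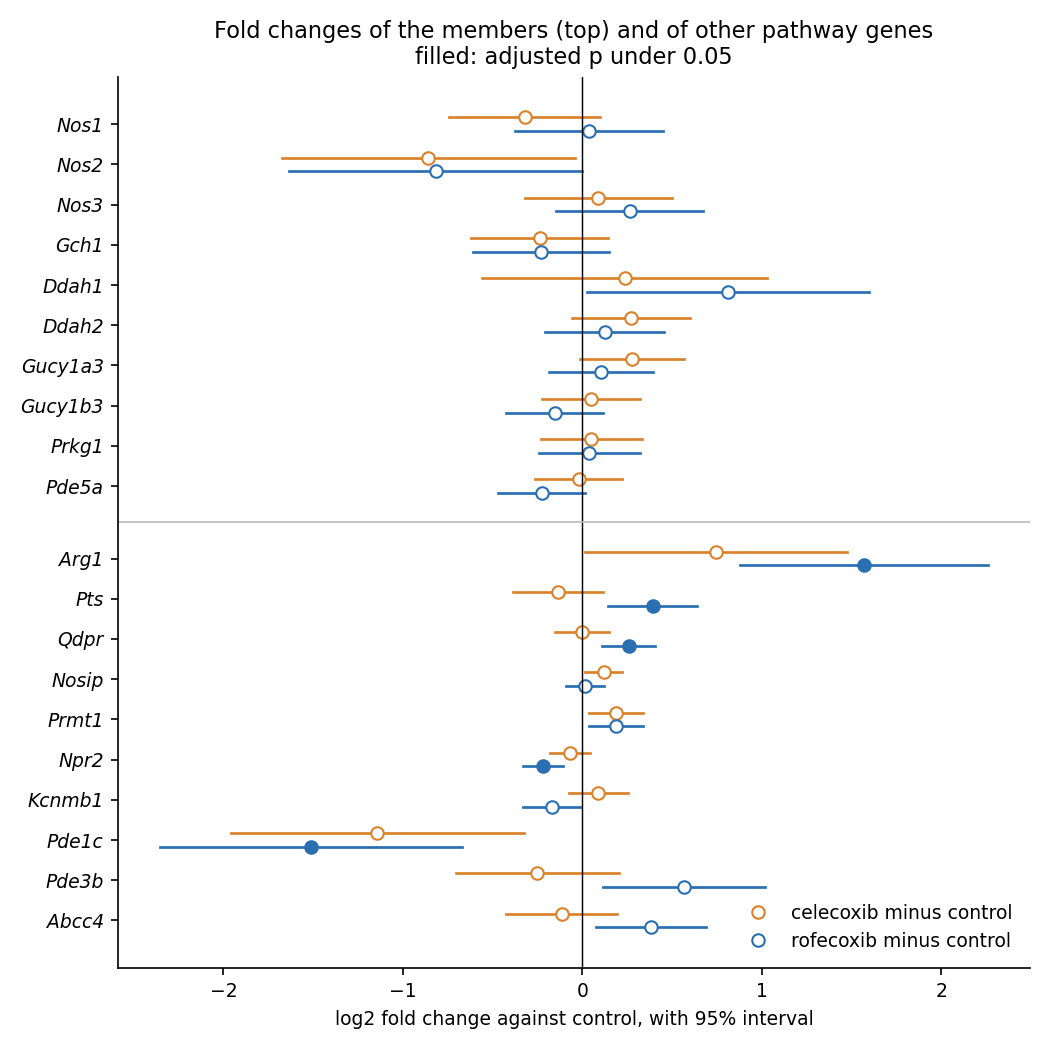
Log2 fold changes against control, with 95% intervals, for the 10 genes (top) and for the named genes of the wider pathway (bottom), with celecoxib in orange and rofecoxib in blue. Filled points have an edgeR adjusted p under 0.05; all points of the top block are open, and 5 of the rofecoxib points of the lower block are filled.

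Some of the 10 genes varied together. For the cyclase subunits and Pde5a, r was 0.84 between Gucy1a3 and Pde5a, 0.81 between Gucy1b3 and Pde5a and 0.77 between the subunits (rho 0.83, 0.74 and 0.70; permutation p adjusted over 45 pairs, for r, 0.00045, 0.00075 and 0.00304). Without the 2 libraries farthest from the median the first 2 were 0.82 and 0.73, and in the control, celecoxib and rofecoxib groups they were 0.81, 0.61 and 0.93, and 0.51, 0.58 and 0.96. That of the subunits was 0.72 with celecoxib and 0.94 with rofecoxib but 0.18 in controls; without the 2 libraries farthest from the median the pooled value was 0.65. Between Nos2 or Gch1 on the one side and the cyclase subunits or Pde5a on the other, r was below 0 for all 6 pairs, but only the 2 pairs with Gucy1a3 passed adjustment. For Nos2 and Gucy1a3 r was -0.72 and rho -0.72 (adjusted permutation p = 0.00306 and 0.0042), -0.66 without the 2 farthest libraries, and -0.40, -0.79 and -0.77 within the control, celecoxib and rofecoxib groups. For Gch1 and Gucy1a3 r was -0.57 and rho -0.60 (adjusted permutation p = 0.0475 and 0.0244). Nos2 with Gucy1b3 and with Pde5a was at r = -0.49 each (adjusted permutation p = 0.104 for both), and Gch1 with Gucy1b3 at -0.27 and with Pde5a at -0.37 (adjusted 0.415 and 0.235). In controls Nos2 with Gucy1b3 and Gch1 with Gucy1b3 were above 0, at 0.36 and 0.29. Ddah2 was positively correlated with Gucy1a3 (r = 0.57, adjusted p by permutation 0.0299; 0.43 without the 2 farthest libraries) and negatively with Nos2 (r = -0.66, adjusted 0.00735; -0.64). Within controls these were 0.0014 and -0.14, against 0.68 and -0.78 with celecoxib and 0.77 and -0.81 with rofecoxib. Over all libraries r between Prkg1 and each of the other 9 lay between -0.33 and 0.27 and none passed, but with Gucy1b3 it was 0.91 within controls, -0.27 with celecoxib and -0.04 with rofecoxib. No difference in r between groups was tested. All these genes were measured in the same libraries and share their scaling and cell makeup. As a description, Gucy1b3 followed the smooth muscle marker level at r = 0.78, Pde5a at 0.61 and Gucy1a3 at 0.48, and Nos2 and Gch1 at 0.05 and 0.21. With the level of the brown adipocyte markers r was -0.54 for both Nos2 and Gch1, 0.09 for Gucy1b3, 0.09 for Gucy1a3 and 0.16 for Pde5a. With that of the white adipocyte markers it was -0.25 for Nos2, -0.37 for Gch1, -0.43 for Gucy1b3, -0.34 for Gucy1a3 and -0.37 for Pde5a. With the endothelial level Nos2, Gch1, Gucy1b3, Gucy1a3 and Pde5a were at -0.17, -0.31, -0.51, -0.39 and -0.52. With the neutrophil level, in the same order, they were at -0.07, -0.18, -0.49, -0.38 and -0.57. The part of cell makeup in these correlations was not tested.

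**Figure D5:**
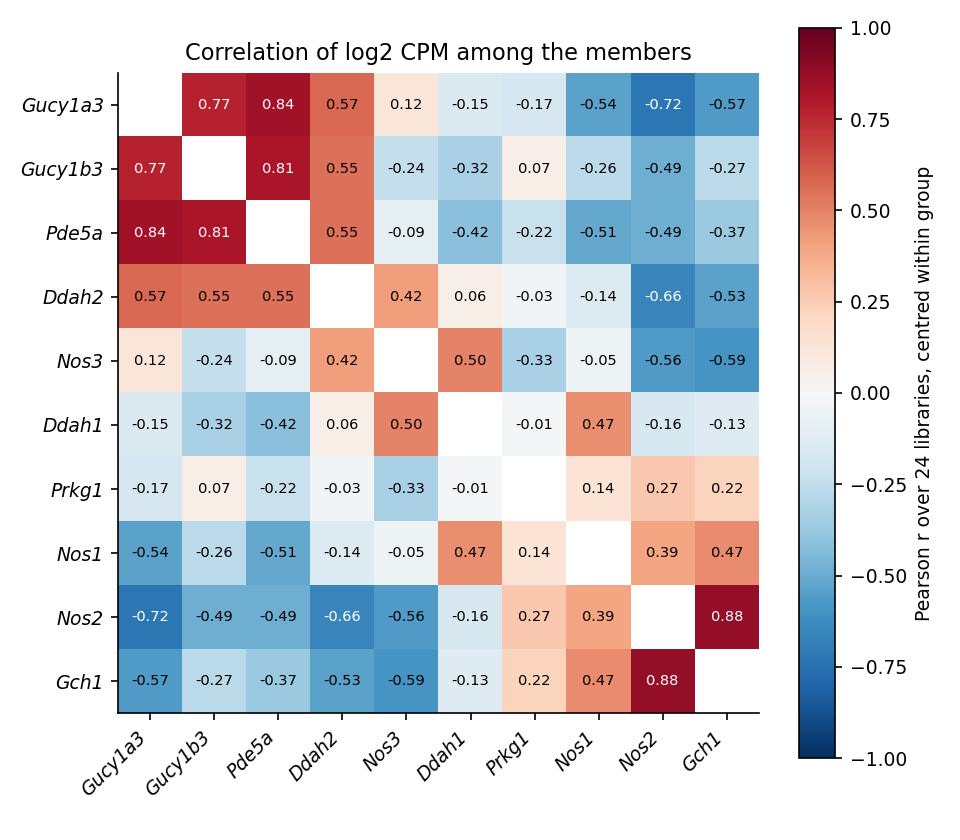
Pearson's r between the log2 CPM of each pair of the 10 genes over 24 libraries, after centring each gene within its group, from -1 (blue) to 1 (red). The upper left holds positive values among Gucy1a3, Gucy1b3, Pde5a and Ddah2, the lower right Nos2 with Gch1 (0.88), and the values between them are negative, from -0.27 to -0.72.

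Among the 13156 genes that averaged 1 CPM or more, those whose centred log2 CPM was most like that of each gene were listed as a description, with r over 24 libraries. For Nos2 they were Icam1 (0.95), an adhesion molecule for leukocytes, Gbp5 (0.95), a guanylate-binding protein that interferon induces, and Acvr1b (0.94), an activin receptor. Gch1 was most like Ripk2 (0.97), a kinase of innate immune signalling, Nfkb1 (0.97), which encodes a subunit of NF-kB, and Cdk17 (0.97). Nos3 was most like Sox18 (0.92), a transcription factor of endothelial cells, Arhgef15 (0.92) and She (0.92). For Gucy1b3 the likeness was highest with Fhl1 (0.94), Fam198b (0.92) and Anln (0.92), and for Gucy1a3 with Ctcf (0.91), the insulator-binding protein, Dgcr8 (0.90), a partner of Drosha in microRNA processing, and Tmx4 (0.90). Pde5a was nearest to Plod2 (0.87), a collagen lysyl hydroxylase, Eif2c1 (0.87), an Argonaute, and 1110028C15Rik (0.86). Ddah1 was nearest to Sprn (0.90), Prkcz (0.88) and Sema6d (0.88), Ddah2 to Syt15 (0.87), Serpinb8 (0.86) and Fbxl2 (0.85), and Nos1 to Nolc1 (0.85), Islr2 (0.85) and Hunk (0.83). The nearest genes of Prkg1 were the least alike, A530054K11Rik, Slc30a4 and Aldh1l2, at 0.75 to 0.76.

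The rest of the pathway was taken as a list of 47 genes in 8 roles, of which 43 were tested. With rofecoxib 5 of 43 passed, 3 higher and 2 lower, where 3.88% of all genes were higher and 3.06% lower. At an unadjusted p under 0.05 the count was 14 of 43, beside 28.2% of all genes. The median log2 fold change of the 43 was 0.01, beside 0.02 over all genes. With celecoxib 0 of 43 passed by edgeR, DESeq2 or limma voom. Of all genes, edgeR called 0.0344% there, DESeq2 107 of 13945 and limma voom 121 of 14528. By edgeR 5 of 43 had an unadjusted p under 0.05 with celecoxib, beside 13.6% of all genes. The median there was -0.04 beside 0.00.
Pts and Qdpr, enzymes of the tetrahydrobiopterin path, rose with rofecoxib. Pts (chr9:50329521-50336948), 6-pyruvoyl-tetrahydropterin synthase, the step after Gch1, ran from 8.69 through 11.2 to 13.5 CPM in controls and from 10.99 through 14.2 to 18.3 with rofecoxib, a log2 fold change of 0.39 (SE 0.12, adjusted p = 0.0477), with 5 of 8 libraries above every control. Qdpr (chr5:45825069-45841676), which recycles the oxidised cofactor, ran from 28.7 through 31.1 to 39.9 CPM and from 31.9 through 39.0 to 44.6, a change of 0.26 (SE 0.07, adjusted p = 0.0348). The Pts call was lost with the replicate number as a block (adjusted p = 0.0634) and in 16 of the 24 fits that left out a library. In the same comparison 8 of 8 white adipocyte markers (median 0.81, 3 passing) and 7 of 7 Schwann cell markers (median 1.01, 1 passing) were above 0. So were 6 of 6 brown adipocyte (0.88, 0 passing) and 8 of 8 neutrophil markers (0.57, 0 passing). The same held for 9 of 9 macrophage (0.33, 1 passing) and 13 of 14 endothelial markers (0.30, 3 passing). Of the fibroblast markers 5 of 7 were above 0 (0.03), and all 11 smooth muscle and all 4 tested skeletal muscle markers were below 0. The part of any of these lists in Pts and Qdpr was not tested. Gch1, which starts the same path, was at -0.23 and did not pass.

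Arg1 (chr10:24634812-24647478), the arginase that competes with the synthases for arginine, showed the largest rise of the list. It ran from 0.0971 through 0.233 to 0.511 CPM in controls and from 0.374 through 0.740 to 1.02 with rofecoxib, a log2 fold change of 1.57 (SE 0.34, adjusted p = 0.0116), with 7 of 8 libraries above every control. These levels rest on few reads per library, so the size of the rise in Arg1 is loosely fixed. Macrophages are a known source of this enzyme, and 9 of 9 macrophage markers were above 0 in the same comparison (median 0.33, summed level 157 to 391 CPM with rofecoxib and 185 to 281 in controls), with Mrc1 called higher by 0.60 (SE 0.17, adjusted p = 0.0325). Also above 0 were 8 of 8 neutrophil (median 0.57), 8 of 8 white adipocyte (0.81) and 7 of 7 Schwann cell markers (1.01), while all 11 smooth muscle markers were below 0. The part of any of these lists in the rise of Arg1 was not tested. With celecoxib Arg1 ran from 0.136 through 0.383 to 0.948 CPM, at 0.74 (SE 0.35, adjusted p = 0.362).

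On the cGMP side, Npr2 (chr4:43644605-43664318), the receptor guanylyl cyclase for C-type natriuretic peptide, fell by 0.22 on the log2 scale with rofecoxib (SE 0.05, adjusted p = 0.0224). It ran from 139 through 143 to 162 CPM in controls and from 111 through 124 to 143 with rofecoxib, where 7 of 8 libraries lay below every control. The 11 smooth muscle markers, all below 0 in this comparison, had a median of -0.18, and Npr2 was not tested against their level. Pde1c (chr6:56019613-56319830), a calcium- and calmodulin-dependent phosphodiesterase, fell by 1.51 (SE 0.41, adjusted p = 0.0301), from 0.377 through 0.539 to 1.46 CPM in controls to 0.0899 through 0.183 to 0.403 with rofecoxib, with 6 of 8 libraries below every control. Pde1c was also low with celecoxib, from 0 through 0.239 to 0.584 CPM (-1.14, SE 0.40), but did not pass there (adjusted p = 0.233). These are a few reads per library, so the size of the change is loosely fixed.

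Between the drug groups 12 of 43 had an unadjusted p under 0.05, beside 23% of all genes. The 3 genes that passed there were all higher with rofecoxib, where 4.32% of all genes were higher and 0.564% lower. They were Pts (0.53, SE 0.12, adjusted p = 0.0369), Qdpr (0.26, SE 0.07, adjusted p = 0.0421) and Pde3b (chr7:121558593-121682967; 0.82, SE 0.22, adjusted p = 0.0397), a phosphodiesterase that cGMP inhibits and that fat cells express. Pts ran from 7.20 through 10.1 to 12.2 CPM with celecoxib, Qdpr from 28.1 through 32.8 to 36.3 and Pde3b from 21.66 through 30.4 to 47.6, against 23.8 through 61.1 to 75.3 for Pde3b with rofecoxib. Beside this stood the white adipocyte markers in the same comparison (8 of 8 above 0, median 1.10, 4 passing, Plin1, Lep, Pparg and Fabp4). Their summed level ran from 1021 to 4420 CPM with rofecoxib and from 741 to 2182 CPM with celecoxib. Of the other lists, 7 of 8 neutrophil markers (median 1.52), 5 of 7 Schwann cell markers (1.65), 4 of 9 macrophage markers (0.57) and 2 of 6 brown adipocyte markers (1.29) also passed, all higher with rofecoxib. The part of any of these in the 3 calls was not tested. None of the 3 passed with the replicate block, with only these 2 groups in the fit or with no filter on low counts, where 0 genes of the whole table passed. The doses of the drugs differed, so this compares the 2 treatments as given.

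The roles with no call are shown by the gene of lowest p. Prmt1, which methylates arginine residues, was at 0.19 with each drug (SE 0.07, adjusted p = 0.100 with rofecoxib and 0.274 with celecoxib). Kcnmb1, a subunit of the calcium-activated potassium channel that cGMP-dependent kinase opens, differed between rofecoxib and celecoxib by -0.26 (SE 0.08, adjusted p = 0.0566), and Abcc4, an exporter of cyclic nucleotides, by 0.50 (SE 0.15, adjusted p = 0.0508). Nosip, a partner of the synthases, was at 0.12 (SE 0.05, adjusted p = 0.318) with celecoxib.

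These pathway counts depended on single libraries, as did the calls over all tested genes. With rofecoxib against control the latter numbered 1008 in the main fit and 358 without control replicate 2. They were 383 without rofecoxib replicate 7 and 1945 without rofecoxib replicate 8. Between the drugs all genes gave 710 calls, 0 without celecoxib replicate 2 or 3 and 1997 without rofecoxib replicate 8. The 5 calls with rofecoxib became 1 without control replicate 2, 2 without rofecoxib replicate 2 or 7 or control replicate 6, 3 without rofecoxib replicate 4 or 6 or control replicate 1, 5, 7 or 8, and 11 without rofecoxib replicate 8. Arg1 passed with each of the 24 libraries left out in turn, Npr2 in 23 (not without control replicate 2) and Pde1c in 19 (not without rofecoxib replicate 2, 6 or 7 or control replicate 2 or 6). Qdpr passed in 15, not without rofecoxib replicate 2, 4 or 7 or control replicate 1, 2, 5, 6, 7 or 8 (adjusted p up to 0.0794). Pts passed in 8 of the 24, those without celecoxib replicate 5, 6 or 8, rofecoxib replicate 1, 3, 5 or 8 or control replicate 4 (adjusted p otherwise up to 0.108). The 3 calls between the drugs became 0 without celecoxib replicate 2, 3, 4 or 5 or rofecoxib replicate 2, 3, 4 or 7, and 1 without rofecoxib replicate 1 or control replicate 6. They became 5 without celecoxib replicate 8 or control replicate 4, 6 without celecoxib replicate 7 and 9 without rofecoxib replicate 8. Between the drugs Pts passed in 16 of the 24, Pde3b in 13 and Qdpr in 10, with adjusted p up to 0.0874, 0.0921 and 0.101, each highest without celecoxib replicate 3. For the 10 genes the count stayed at 0 with any library left out, in all 3 comparisons.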

How the data were processed

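The input was the deposited table of read counts, whole numbers for each gene in 24 libraries. The submitters' processing notes name CASAVA 1.8.1, STAR 2.5.1b and mm9. They do not state the counter, the annotation, the strand setting or any step that made the totals alike. Libraries were made with a TruSeq kit and 13 PCR cycles over 3 days, per the labels' protocols, which do not assign libraries to days. Groups came from the sample labels. Positions are as the table gives them, on mm9.

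The 10 genes and the lists of 47 pathway genes and of cell type markers were chosen with earlier results of these data known. edgeR 4.0.16 in R 4.3.3 used TMM scaling, the default filter (14528 genes) and the quasi-likelihood test, fitted on all 24 libraries with 1 mean per group. A gene passed when its two-sided p, adjusted after Benjamini and Hochberg across the tested genes, was under 0.05. The common biological coefficient of variation was 19.6%. CPM are reads scaled to a common library total after TMM. Log2 CPM for correlations, marker levels and relative levels used a prior count of 2, and permutations for correlations shuffled libraries within groups. The 2 libraries farthest from the median were picked by 1 gene of a pair, the earlier in the order in which the 10 were first named. A library extreme only in the other gene could thus stay in. Exact tests of 8 against 8 libraries used all 12870 splits, whose smallest p is 0.000155. Exon lengths were the union of exons in a later annotation, on GRCm38. Names covered all 10 genes, pathway genes that passed in any comparison or had the lowest p in a role with no call, the 3 genes most like each of the 10, and called markers, up to 3 per list and comparison; further called markers of the fat list were named after their values were seen.

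On counts simulated with these libraries' means and spread, 42%, 68%, 88% and 92% of genes changed 1.25-, 1.5-, 2- and 3-fold were recovered between rofecoxib and control (14437 genes, 8 false calls). Between celecoxib and control the shares were 32%, 66%, 88% and 96% (14431 genes, 4 false calls). Each share rests on 50 changed genes and was not worked out for the nitric oxide and cGMP genes. Each of those had a within-group SD of log2 CPM above the median of all tested genes, 0.207. Their SDs ran from 0.250 for Pde5a to 0.742 for Ddah1 and 0.887 for Nos2. The shares thus cannot tell how often a change in these genes would be called. Nor do they measure how far single libraries moved the real calls. No libraries of a group agreed within sampling noise, the lowest chi-square per degree of freedom being 8.774. The alternatives tried were DESeq2 1.42.0, voom with sample weights from limma 3.58.1, scaling by RLE or by library size alone, no filter or one at a mean of 1 CPM, only the groups compared, the replicate number as a block, a term for replicates 1 to 4 against 5 to 8, and leaving out each library. Promoter letters came from RefSeq (GRCm38.p6).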

Additional observations from a re-analysis of the deposited data

Results flagged for a closer look

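Of 33 groups of 8 libraries examined for a library far from the rest, 3 held one. The rule, Dixon's gap over range above 0.526, flags about 1 in 20 by chance only when values are normally distributed. It was applied to values without logs, where a high library stands out more, and was not run on the log2 scale. Ddah1 was at 11.2 CPM in rofecoxib replicate 5 and at 4.74 CPM in celecoxib replicate 7, each far above the next library of its group. Rofecoxib replicate 5 also had the highest Nos1 (2.81 CPM) and the highest Schwann cell marker level of all libraries (513.7 CPM), and celecoxib replicate 7 had the highest endothelial marker level of its group (1454 CPM). Nos1 was at 0.964 CPM in control replicate 8, far below the other 7 controls, on 21 reads.

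Log2 fold changes against control differed between the drug groups for 3 genes of the wider pathway, by edgeR's test of the difference itself: Pts by 0.53, Qdpr by 0.26 and Pde3b by 0.82, all higher with rofecoxib. None of the 3 passed with the replicate block (adjusted p = 0.0532, 0.0640 and 0.0532), with only the 2 groups compared or with no filter. Both drug groups share the control libraries, so this is the direct comparison of rofecoxib with celecoxib, at doses that differed.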

How the results depend on the processing

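The count of 0 of the 10 genes held in all 3 comparisons under every alternative run. In the wider pathway the 5 calls with rofecoxib became 8 (5 higher, 3 lower) with library size alone, 2 with no filter, 10 (6 higher, 4 lower) with limma voom, 3 with only the groups compared and 8 with a term for replicates 1 to 4 against 5 to 8; leaving out a library gave 1 to 11. The 3 calls between the drugs became 5 with library size alone, 0 with no filter, 7 (4 higher, 3 lower) with DESeq2, 5 with limma voom, 0 with only the groups compared and 0 with the replicate block; leaving out a library gave 0 to 9. Calls over all genes moved as well. With rofecoxib 1008 became 1427 with library size alone, 557 with no filter and 2447 with limma voom. They became 897 with only the groups compared and 1735 with the term for replicates 1 to 4. With celecoxib 5 became 174 with that term, 107 with DESeq2, 121 with limma voom and 45 with only the groups compared. Between the drugs 710 became 752 with library size alone, 1439 with DESeq2 and 862 with limma voom. No filter, only the groups compared and the replicate block each gave 0. The cause was not tested. The replicate numbers were not taken to pair the samples, since not every correlation of same-numbered libraries' deviations was over 0.1. They ran from -0.303 to 0.560 in all, from 0.153 to 0.479 for replicate 4 and from 0.0934 to 0.560 for replicate 5, and 7 of 24 libraries were most like their own number in another group. That count was not compared with what chance gives, so some shared structure by number remains possible. The replicate block gave 4 calls with rofecoxib and 0 with celecoxib in the wider pathway, beside 1187 and 27 over all genes. With the block Pts did not pass against control (adjusted p = 0.0634), nor Pts, Qdpr and Pde3b between the drugs (0.0532, 0.0640 and 0.0532), and no other call changed. The subunit ratio gave 0.26 and 0.23 with the replicate block as an exact sign-flip permutation test, an alternative chosen after seeing the data (adjusted p = 0.141 and 0.0703).

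The differences that changed sign were all small and none had passed. Library size alone gave Pde5a 0.0033 and Qdpr 0.024 with celecoxib, and Prkg1 0.032 and Prmt1 0.036 between the drugs. No filter gave Qdpr 0.0074 with celecoxib and Gch1 -0.0072 between the drugs, where DESeq2 gave Gch1 -0.00054. Limma voom gave Nos1 -0.13 with rofecoxib, Prkg1 -0.12 and Qdpr 0.024 with celecoxib, and Nos2 -0.035, Prkg1 0.14, Gch1 -0.016 and Prmt1 0.0090 between the drugs. The replicate block gave Qdpr 0.0031 with celecoxib and Prkg1 0.014 between the drugs, the term for replicates 1 to 4 gave 0.0040 and 0.00067, and only the groups compared gave Prmt1 0.00046. Against the median of the markers, Nos3 was at -0.15 with celecoxib and Gucy1b3 at -0.018 with rofecoxib and -0.076 with celecoxib. The subunit ratio between the drugs was -0.0074 in replicates 5 to 8.

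Leaving out a library moved these across 0. With rofecoxib Nos1 ran from -0.16 to 0.11, Prkg1 from -0.0067 to 0.086 and Nosip from -0.020 to 0.033. With celecoxib Gucy1b3 ran from -0.013 to 0.087, Pde5a from -0.064 to 0.021, Prkg1 from -0.071 to 0.11 and Qdpr from -0.024 to 0.047. Between the drugs Nos2 ran from -0.16 to 0.25, Gch1 from -0.084 to 0.10, Prkg1 from -0.076 to 0.10, Prmt1 from -0.046 to 0.025 and the subunit ratio from -0.014 to 0.064. Relative to markers, Nos3 ran from -0.13 to 0.0070 with rofecoxib and from -0.036 to 0.12 with celecoxib, Gucy1b3 from -0.050 to 0.071 and from -0.012 to 0.060, and with celecoxib Pde5a from -0.10 to 0.00012 and Prkg1 from -0.097 to 0.074. The subunit ratio against control stayed above 0, from 0.21 to 0.32 with rofecoxib and from 0.18 to 0.29 with celecoxib. Depth left Gchfr, Agxt2, Gucy1b2 and Pde11a, with at most 15, 1, 3 and 10 reads in a library, out of the tests.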
